A study of Rattus norvegicus with 11 samples.

Results

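The colliculi of seizure-prone KM rats were compared with those of W rats, their outbred parent stock, across all genes with a mean of at least 1 CPM (counts scaled to a common library size) over the 7 rats. This rule kept 13721 of the 32883 genes in the count files, and the rats were 7 of the 11 in the series, 3 KM and 4 W. Each rat gave 1 library, made from poly(A) RNA of the corpora quadrigemina (the inferior and superior colliculi together) and sequenced as 75-bp single-end reads. KM (Krushinsky-Molodkina) is a strain bred out of Wistar rats for audiogenic epilepsy, in which a loud sound sets off running and then tonic convulsions. The KM genotype is given as prone to audiogenic epilepsy and the W genotype as wild type, while the strain label reads wistar for both. According to the methods of the paper, all rats were males 4 months old, all heard the test sound 4 days before the tissue was taken, KM rats had also heard it once at 3 months, and W rats that answered with a wild run were left out. The KM rats had seizures and the W rats had none, so strain and seizure history cannot be told apart here. KM is also an inbred strain and W an outbred stock, so alleles that inbreeding fixed in KM rats are compared together with those that selection for seizures fixed.

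The inferior colliculus is a relay of the auditory pathway and the place where sound-evoked seizures start, and the superior colliculus next to it turns sensory input into orienting movement. Tissue dissected from the dorsal midbrain carries neurons, glia and vessels, and lies against the meninges, the choroid plexus of the neighbouring ventricles and blood. A strain difference in bulk RNA can therefore come from the alleles of a gene or from the cells in the sample, and in these data fewer cells of a type and less RNA per cell cannot be told apart.

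Reads counted on genes were 11552974 in the smallest library and 15140180 in the largest. By these totals 3 counts, the smallest amount taken as detectable, were 0.198 to 0.260 CPM (a floor for counting error only). This range is without the TMM scaling of the other CPM values (described with the processing), so on their scale it is approximate. Rats of one strain were about as alike as rats of different strains, and Spearman correlations of log2 CPM over the tested genes were 0.948 to 0.978 among KM rats, 0.955 to 0.984 among W rats and 0.956 to 0.980 between KM and W rats. KM 3 stood apart in having 7.94% of its reads on its 10 most counted genes, against 13.9% to 19.0% in the other 6 rats, and in its choroid plexus genes described below. Symbols were taken from the supplementary gene list of the study, which names 1763 identifiers, and 1759 of these were tested. Markers of the tectum could not check the tissue label, since Pou4f1 was the single one of 18 with a name, at 0.0837, 0.174 and 1.19 CPM in KM rats and 1.21, 2.81, 2.37 and 0.857 in W rats (unadjusted p = 0.0466 in the quasi-likelihood F-test of edgeR, the QLF test). It did not pass this test at 0.05 without KM 1, KM 2, W 1 or W 3, and the log2 difference went from −1.78 to −3.73 without KM 3. None of the marker genes listed for the pineal gland or the cerebellum had a name.

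The study called differentially expressed genes (DEGs) without adjustment for the number of tests. The same was done here with the QLF test, at a p under 0.05. There were 1497 DEGs, 10.9% of the genes tested, 765 higher in KM rats (5.58%) and 732 lower (5.33%). At this threshold 686 genes would be expected to pass by chance if no gene differed between the strains. Single calls, and the list counts below that rest on them, therefore include false ones. The median DEG differed by 0.53 on the log2 scale, a 1.45-fold difference, and 244 DEGs differed by more than 1, 141 upward and 103 downward in KM rats. The 3 KM and 4 W rats did not overlap in 1594 genes (11.6%), among them 1099 of the DEGs. With so few rats, some genes separate in this way by chance too. After Benjamini-Hochberg adjustment over all genes tested, 9 genes (0.0656%) had an adjusted p under 0.05. Without W 1 the DEGs numbered 954, the fewest of any left-out rat, and without W 4 they numbered 1831. The direction of the DEGs differed between scarce and abundant genes. With the genes cut into 5 equal bins of mean CPM, in the lowest bin 183 DEGs were higher and 114 lower in KM rats, and in the highest bin 109 were higher and 235 lower.

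**Figure D1:**
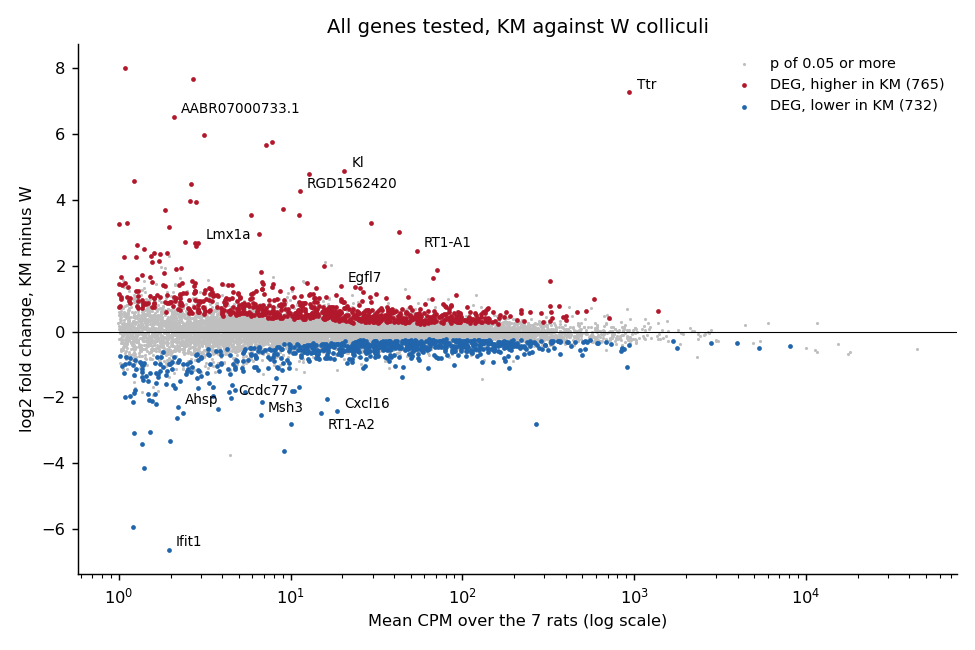
Log2 fold change (KM minus W, vertical axis) against mean CPM over the 7 rats (horizontal axis, log scale) for the 13721 genes tested, with 1 point a gene. Red points are the 765 DEGs higher in KM rats and blue points the 732 lower, and most of the larger differences lie to the left, among genes of low CPM.

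Of the 9 genes that passed the adjustment, 4 were higher and 5 lower in KM rats. RT1-A2, a classical class I molecule that presents peptides to T cells, was at 3.85, 4.0 and 4.64 CPM in KM 1, 2 and 3 and at 24.9, 23.2, 29.2 and 14.8 in W 1, 2, 3 and 4 (the order kept below). All KM rats were below all W rats, a log2 fold change of −2.46 ± 0.25 (approximate SE; adjusted p = 0.021, QLF test with Benjamini-Hochberg adjustment). RT1-A1, another class I gene, was at 92.2, 106 and 108 CPM in KM rats and 23.2, 10.5, 24.0 and 16.4 in W rats, which is the other way by the same amount, 2.46 ± 0.26 (adjusted p = 0.021). Reads from such near-identical copies can be split between them by the counting, and the reference genome carries 1 haplotype of a region in which rat stocks differ, so the levels of these 2 genes are uncertain. Ccdc77, a coiled-coil protein gene, was at 1.84, 1.48 and 1.55 CPM in KM rats and 5.41, 7.95, 6.07 and 7.05 in W rats. These groups were also separate, with a difference of −2.02 ± 0.24 and an adjusted p of 0.0355. Egfl7, which codes for a protein secreted by endothelial cells, was at 33.7, 30.1 and 27.2 CPM in KM rats and 11.8, 14.5, 10.6 and 9.34 in W rats, a 2.62-fold difference (log2 1.39 ± 0.17, adjusted p = 0.0479).

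Of the remaining 5, RGD1562420 was higher in KM rats by 4.26 ± 0.25 on the log2 scale. An identifier under the symbol Pcdha4 (−2.63 ± 0.27) and the unnamed ENSRNOG00000021084 (−2.81 ± 0.32) were lower. A second identifier under the symbol Pcdha4 differed less and did not pass the adjustment (−1.28 ± 0.35, adjusted p = 0.322, QLF test). AABR07000733.1 had 191 reads in the KM rats together and 2 in the W rats, a ratio of 112 with a 95% counting interval of 30.5 to 929. Such an interval covers counting error in the pooled reads and leaves out the spread between rats. ENSRNOG00000058238 had 1 read in all 3 KM rats together, which was in KM 3, and 18 to 28 reads in each W rat, which is a ratio of 83.8 in favour of W rats, with an interval of 14.7 to 3340. Rpl30l1, a ribosomal protein L30 copy, was the reverse, with no read in any W rat and 24, 32 and 48 reads in the KM rats, at least 40.5-fold higher against a floor of 3 counts over the W group, with an adjusted p of 0.0515. Rpl30 itself was also a DEG higher in KM rats (0.92 ± 0.30, unadjusted p = 0.0144, and 0.0631 without KM 2), the single one of 21 ribosomal protein DEGs in that direction, and reads of the 2 copies may be shared.

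The 12 largest differences in each direction were taken among named genes, those already described included, with p under 0.01, a mean of at least 2 CPM and no overlap between the strains. Msh3, which recognises insertion and deletion loops in DNA mismatch repair, was at 2.93, 1.74 and 0.773 CPM in KM rats and 10.1, 10.4, 9.06 and 11.8 in W rats. It was 5.80-fold lower in KM rats (log2 −2.54 ± 0.39, adjusted p = 0.109). Cxcl16, a chemokine that is also held on the cell surface as a scavenger receptor, was at 4.86, 4.52 and 6.6 CPM in KM rats and spread from 17.5 to 46.6 in W rats (−2.42 ± 0.39). Fam111a, a protease gene with a role in antiviral restriction, was at 4.35, 4.87 and 6.96 CPM in KM rats and 0.162, 0.156, 2.46 and 0.572 in W rats (2.70 ± 0.76), so that W 3 lay well above the other W rats, and the difference was 4.19 without it. Sapcd1, Ptgr1, Efcc1 and Lgr6 were 2.67-fold to 3.95-fold higher in KM rats, and Cyp4x1, Avil and Morn1 3.54-fold to 3.84-fold lower. Without W 1 the log2 difference of Sapcd1 went from 1.98 to 2.64. The other genes of this rule are those above or belong to the erythroid, choroid plexus and interferon groups below. Large differences had other DEGs nearby about as often as DEGs in general did. Of 91 named genes with p under 0.01 and a log2 difference over 1, 45 (49.5%) had another named DEG within 5 protein-coding genes, and of all 1328 named DEGs with a place in the RefSeq order of genes (assembly GRCr8) 676 (50.9%) did.

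**Figure D2:**
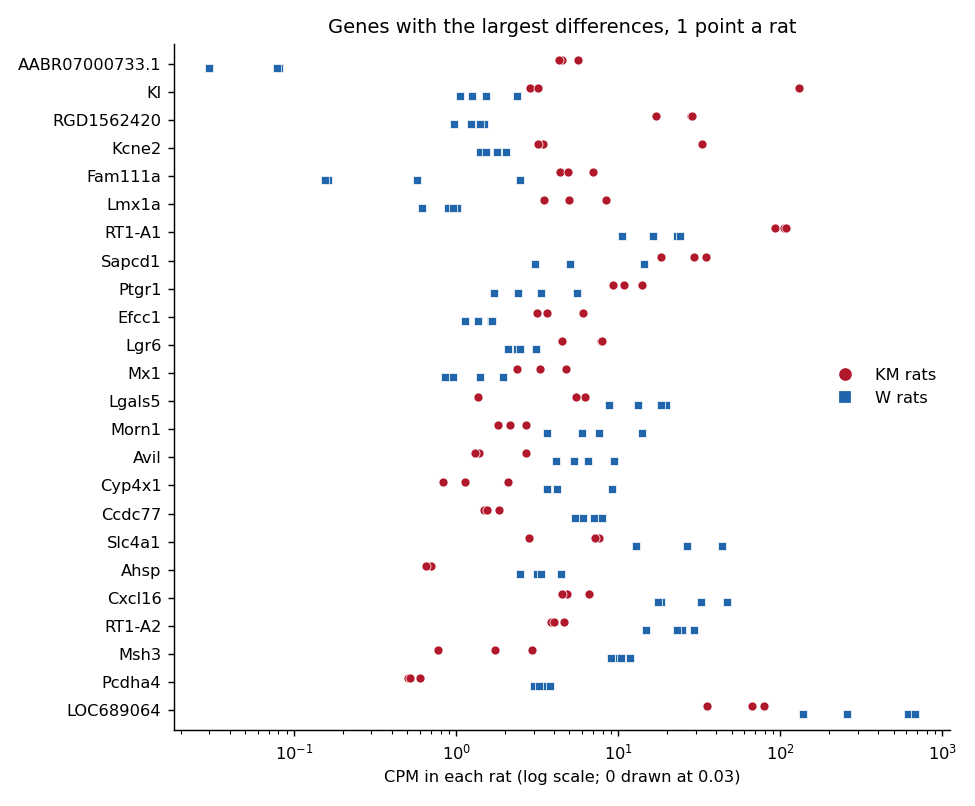
CPM in each rat (horizontal axis, log scale, 0 drawn at 0.03) for the 24 named genes with the largest differences, red circles for the 3 KM rats and blue squares for the 4 W rats. The strains do not overlap in any of them by the rule that chose them, and Kl and Kcne2 each have 1 KM rat, KM 3, far above the other 2.

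Groups of genes were counted over their named members, which were often a small part of the genes listed. They were 8 of 42 for synaptic vesicle release, 16 of 68 for DNA repair and 35 of 58 for the interferon response. What is said of a group below holds for its named members alone. Genes described within a list were mostly its DEGs of smallest p, so their lack of overlap follows in large part from that choice. Since the study named almost only genes that it listed as differing, 1383 of the 1759 named genes tested (78.6%) were DEGs, 39.5% of the named genes higher and 39.2% lower in KM rats. A high share of DEGs in a list is therefore no finding, and a list's direction is given beside these nearly equal shares. The median log2 fold change of all genes tested was 0.01. Naming mostly genes that differed also moves a list's median away from 0. The size of such a median is therefore not to be judged against this value.

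Genes that mark the choroid plexus, the epithelium that makes cerebrospinal fluid, were far higher in KM 3 than in any other rat. Of 16 named members, 12 were DEGs, all higher in KM rats, with a median log2 fold change of 2.39. Ttr (transthyretin, the carrier of thyroid hormone in cerebrospinal fluid) was at 10.5 and 38.1 CPM in KM 1 and 2 and at 6460 in KM 3, and at 2.42, 5.77, 45.5 and 2.86 in W rats. Kl (klotho, the co-receptor for FGF23) was at 2.85, 3.21 and 131 CPM in KM rats and 1.05, 1.25, 2.37 and 1.52 in W rats. The summed level of the 16 genes was 422, 441 and 8970 CPM in KM rats and 280 to 474 in W rats, so KM 1 and KM 2 lay inside the W range. Without KM 3, 4 of the 12 were DEGs, Lmx1a, Kl, Kcne2 and Ace, and the median of the list was 0.37, while Aqp1, a water channel, became a DEG in the other direction (1.51 and 2.61 CPM in KM 1 and 2 against 7.35, 3.82, 3.25 and 12.2 in W rats). The log2 fold change of Ttr was 7.27 with all 7 rats (unadjusted p = 0.00981, QLF test), 0.78 without KM 3 (unadjusted p = 0.508) and 9.19 without W 3. That of Kl was 4.89 with all rats and 0.97 without KM 3, and that of Kcne2 2.96 and 0.97.

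For Lmx1a all KM rats lay above the W range. This homeobox gene, which acts in the roof plate that gives rise to the choroid plexus and in midbrain dopamine neurons, was at 4.94, 3.48 and 8.45 CPM in KM rats and 0.889, 1.01, 0.616 and 0.953 in W rats. The groups were far apart, 2.69 ± 0.36 (adjusted p = 0.0515), and 2.26 without KM 3. Of the dopamine neuron markers with a name, Drd2 was at 4.86, 15.6 and 21.8 CPM against 21.5, 25.0, 37.6 and 16.2 and Nr4a2 at 17.9, 10.3 and 6.6 against 10.8, 7.95, 2.46 and 20.0. With all 7 rats neither passed the test and both overlapped between strains. Without KM 3, Drd2 was lower in KM rats (−0.82 with all rats, −1.29 without KM 3, unadjusted p = 0.0319, no overlap), while Nr4a2 was not a DEG.

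Genes of red blood cells and their precursors were lower in KM rats. Of 12 named identifiers 10 were DEGs, all lower, with a median of −1.43, and 9 of the 10 were DEGs whichever rat was left out. Ahsp, the chaperone of alpha globin, was at 0.670, 0.695 and 0.654 CPM in KM rats and 4.44, 2.49, 3.17 and 3.33 in W rats (−2.30 ± 0.31, adjusted p = 0.0515). Slc4a1, the anion exchanger of the red cell membrane, was at 7.62, 7.21 and 2.80 CPM in KM rats and 26.6, 12.9, 12.9 and 43.7 in W rats (−2.04 ± 0.53). Both KM and W rats thus had these transcripts, and the lowest W rat was above the highest KM rat for each gene.

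Among the globins the spread was wider. LOC689064, a beta globin, was at 66.7, 79.7 and 35.3 CPM in KM rats and 139, 612, 257 and 679 in W rats (−2.80 ± 0.58). One alpha globin identifier under the symbol Hba-a2 was a DEG (−1.07 ± 0.37) and the other was not (−0.76, unadjusted p = 0.0706), with W 3 below KM 1 and KM 2 for the latter, and globin copies are alike enough to share reads. The summed level of the list was 1440 to 2840 CPM in KM rats and 2850 to 7430 in W rats. KM 3 had the lowest and W 4 the highest of these sums.

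Meningeal and fibroblast genes were also lower. Of 13 named members, 12 were DEGs, and each of the 12 was lower (median −1.08). The summed level was 128, 113 and 141 CPM in KM rats and 184, 186, 211 and 277 in W rats, with no overlap. Fmod (fibromodulin, a collagen-binding proteoglycan) was at 1.76, 3.74 and 7.02 CPM in KM rats and 10.7, 8.26, 16.4 and 23.4 in W rats (−1.79 ± 0.50, and −2.41 without KM 3). Cpxm1, a secreted carboxypeptidase-like protein, was 1.86-fold lower (−0.89 ± 0.20), Serpinf1, the anti-angiogenic factor PEDF, 2.29-fold lower (−1.20 ± 0.30), and Cthrc1 2.82-fold lower (−1.49 ± 0.43). Without KM 1, 7 of the 12 were DEGs, the fewest of any left-out rat. How much tissue beyond the colliculi each sample held was not tested.

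**Figure D3:**
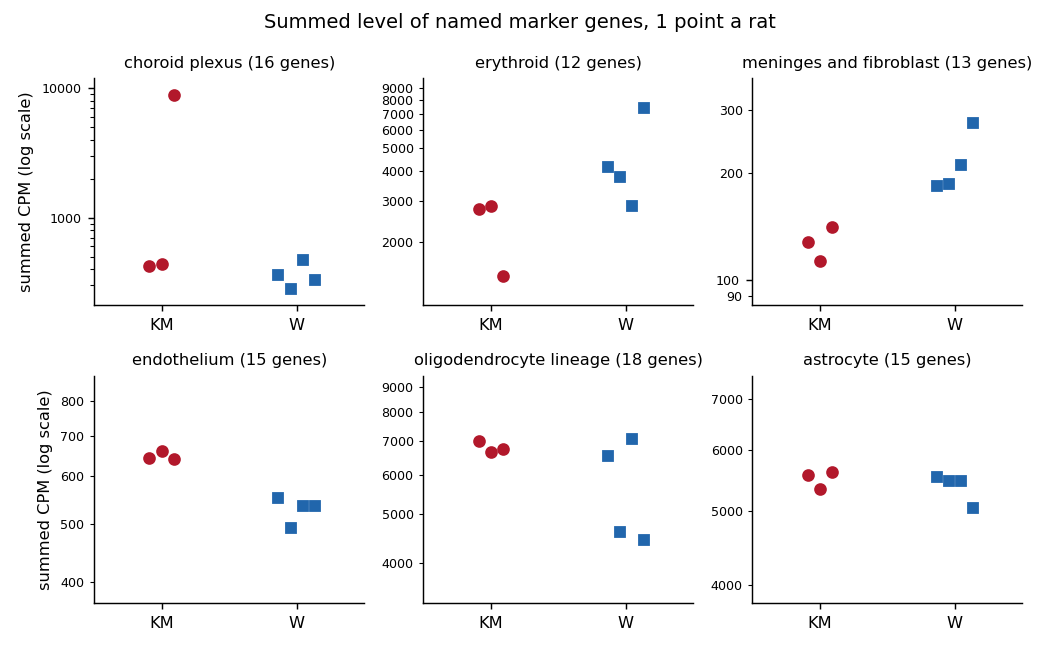
Summed CPM (vertical axis, log scale) of the named marker genes of 6 cell types in each rat, red circles for KM and blue squares for W rats. KM 3 stands alone in the choroid plexus panel, the meningeal and endothelial sums separate the strains in opposite directions, and the oligodendrocyte and astrocyte sums overlap.

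Endothelial genes moved the other way from the meningeal ones. All 15 named markers were DEGs, 14 of them higher in KM rats, with a median of 0.44. Their summed level was 644, 660 and 642 CPM in KM rats and 553, 493, 536 and 536 in W rats. Emcn (endomucin, a surface sialomucin of capillaries and veins) was at 11.1, 14.8 and 10.9 CPM against 6.87, 6.31, 6.86 and 7.34, a 1.79-fold difference (0.84 ± 0.17). Tm4sf1 was 1.87-fold higher (0.90 ± 0.18), Tek, the receptor for angiopoietins, 1.43-fold (0.51 ± 0.12), and Kdr, the main receptor for VEGF, was higher by 0.61 ± 0.15. In each of these 4 genes the lowest KM rat was above the highest W rat, as in 12 of the 15 markers. The exception was Ly6e (−0.35 ± 0.10). Without W 2, 9 of the 15 were DEGs, the fewest of any left-out rat, and 8 were DEGs in every case. Genes of pericytes and smooth muscle were mixed, 4 of 8 higher and 1 lower, and of these 5 none was a DEG without W 1, 1 without KM 2, 2 without KM 3 or W 2 and 3 without KM 1, W 3 or W 4.

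Ramp1, which turns the calcitonin receptor-like receptor into the receptor for the vasodilator peptide CGRP, was at 14.3, 16.9 and 16.5 CPM in KM rats and 35.5, 38.0, 35.9 and 27.9 in W rats. The groups were narrow and separate (−1.11 ± 0.15, a 2.16-fold difference, adjusted p = 0.0515). It was listed with neuropeptides and peptide receptors, of which 6 of 8 named members were DEGs, all lower in KM rats (median −1.15). Npffr1, a receptor for neuropeptide FF, was at 0.502, 0.608 and 1.13 CPM against 1.78, 2.57, 2.11 and 1.43 (−1.36 ± 0.38), and Npy1r, a receptor for neuropeptide Y, differed by −0.77 ± 0.27 (not a DEG without KM 1 or W 2). Without W 2, or without KM 1, 3 of the 6 were DEGs.

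Oligodendrocyte genes were mostly higher and astrocyte genes mostly lower. Of 18 oligodendrocyte lineage genes, 13 were DEGs higher in KM rats and 2 were lower (median 0.57). Anln, which scaffolds septins in myelin, was at 19.3, 15.7 and 14.2 CPM against 6.46, 5.14, 10.6 and 9.05 (1.07 ± 0.26), and Enpp6, a choline phosphodiesterase of newly formed oligodendrocytes, was 1.81-fold higher (0.86 ± 0.22). Tspan2, a tetraspanin of the same lineage, was lower instead, at 74.5, 85.5 and 101 CPM against 189, 182, 182 and 103 (−0.92 ± 0.22). The summed level did not separate the strains, since W 1 and W 3 (6540 and 7080 CPM) lay near the KM rats (6670 to 7010) and W 2 and W 4 at 4610 and 4440. Without KM 2, 10 of the 15 DEGs remained DEGs.

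Of 15 astrocyte genes, 11 were DEGs lower in KM rats and 2 higher (median −0.46). Slc25a18, a mitochondrial glutamate carrier, was at 110, 142 and 124 CPM in KM rats and 199, 184, 185 and 187 in W rats (−0.59 ± 0.12). Mfge8 (lactadherin, which bridges dying cells to phagocytes) was 1.58-fold lower (−0.66 ± 0.15), and Gja1, the gap junction protein connexin 43, was lower by 0.46 ± 0.14 on the log2 scale. Gfap, the intermediate filament whose level is used as a sign of reactive astrocytes, was higher in KM rats (0.62 ± 0.19), at 2160, 1690 and 1310 CPM against 993, 1040, 1070 and 1360. KM 3 was thus below W 4 for Gfap. Without KM 2, 9 of the 13 astrocyte DEGs remained DEGs.

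Interferon-response genes were higher in KM rats. Of 35 named members, 27 were DEGs higher in KM rats and 1, Ifit1, was lower, with a median log2 fold change of 0.62. Type I interferons switch on such genes through the factor ISGF3, which binds the interferon-stimulated response element. Bst2 (tetherin, which holds budding virus on the cell surface) was at 13.1, 18.8 and 24.7 CPM in KM rats and 7.51, 6.47, 11 and 9.05 in W rats (1.15 ± 0.26, adjusted p = 0.286). Oas2, an enzyme that senses double-stranded RNA, was at 2.51, 3.04 and 1.90 CPM against 0.727, 0.546, 0.791 and 1.43 (1.51 ± 0.37). Mx1, a dynamin-like antiviral GTPase, was at 3.27, 4.78 and 2.38 CPM against 1.94, 0.857, 1.41 and 0.953 (1.41 ± 0.38). In all 3 genes the KM rats lay above the W rats, as they did in 21 of the 35 members. Irf7, the factor that amplifies the response, was at 19.7, 25.5 and 13.8 CPM against 5.17, 7.33, 17.4 and 8.67, so that W 3 was above KM 3 (1.03 ± 0.39, unadjusted p = 0.0298, and 0.124 without KM 2). Irf7 was also not a DEG without KM 1, W 1, W 2 or W 4.

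Not every member was higher. Rsad2 (−0.66) and Mx2 (−0.45) had negative values that did not pass the test (unadjusted p = 0.0681 and 0.428). Ifit1 had 1 read in the 3 KM rats together, which was in KM 3, and 36, 50 and 77 reads in W 1, 2 and 3, but none in W 4 (unadjusted p = 0.00297, QLF test). Over the groups this was a ratio of 139 in favour of W rats, with a 95% counting interval of 24.7 to 5540. This interval leaves out the spread between rats, and W 4 was like the KM rats. Ifit3 was higher in KM rats at 4.44, 5.99 and 3.81 CPM against 0.566, 1.79, 3.17 and 2.48, and Ifit2 was higher by 0.62. Both were without a call when KM 2 or W 2 was left out, and Ifit2 also without KM 3 or W 4. Without KM 2, 16 of the 28 interferon DEGs remained DEGs, without W 1 there were 17, and 12 remained DEGs whichever rat was left out. Without KM 3 there were 22, Lgals3bp not among them (log2 1.02 with all rats and 0.22 without KM 3). A fit with the replicate number as a block gave 14 upward DEGs in the list. The mean log2 CPM of the list was 3.20, 3.35 and 3.20 in KM rats and 2.45, 2.71, 3.05 and 2.54 in W rats.

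The proximal promoters of these genes were searched for the core of the interferon-stimulated response element, taken as GAAA, any 2 bases and GAAA again, on either strand. RefSeq sequences (GRCr8, 250 bases before to 50 after the start) were found for 22 of the 27 genes higher in KM rats, 1 of which had more than 1 promoter and was left out. The core was in 11 of the other 21 (52.4%) and in 1312 of all 33469 promoters of the table (3.92%). The genes were taken from an interferon-response list, so a high share follows from the choice of list. List members not higher in KM rats were not searched, so the shares do not bear on the difference between strains. A match says that these letters are present, not that the site is used. The promoters of 4 of the 11 genes are shown, chosen after their values were seen, because the core lies at a different distance from the start in each, with the core in capitals and the gene's own strand read 5′ to 3′. They are Bst2 (chr16:18254918-18255217, minus strand), Irf7 (chr1:205799974-205800273, minus), Ifit3 (chr1:241527076-241527375, plus) and Eif2ak2 (chr6:21940904-21941203, plus), the last coding for the kinase PKR.
Bst2: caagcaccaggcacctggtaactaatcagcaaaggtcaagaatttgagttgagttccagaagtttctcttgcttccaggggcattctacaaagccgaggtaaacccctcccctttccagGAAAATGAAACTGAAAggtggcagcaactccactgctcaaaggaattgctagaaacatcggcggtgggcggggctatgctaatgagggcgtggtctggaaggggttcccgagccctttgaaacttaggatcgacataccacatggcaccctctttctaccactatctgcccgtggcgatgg
Irf7: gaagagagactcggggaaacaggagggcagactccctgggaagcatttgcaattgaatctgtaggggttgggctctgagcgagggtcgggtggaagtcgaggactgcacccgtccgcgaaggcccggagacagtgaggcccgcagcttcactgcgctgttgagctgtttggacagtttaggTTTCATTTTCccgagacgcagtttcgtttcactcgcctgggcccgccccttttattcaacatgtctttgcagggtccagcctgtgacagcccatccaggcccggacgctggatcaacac
Ifit3: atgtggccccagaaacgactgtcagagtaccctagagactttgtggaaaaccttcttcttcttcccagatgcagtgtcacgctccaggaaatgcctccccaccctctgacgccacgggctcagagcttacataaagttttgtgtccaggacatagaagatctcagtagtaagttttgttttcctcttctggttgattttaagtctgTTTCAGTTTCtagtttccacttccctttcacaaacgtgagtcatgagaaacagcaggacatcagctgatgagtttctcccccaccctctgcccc
Eif2ak2: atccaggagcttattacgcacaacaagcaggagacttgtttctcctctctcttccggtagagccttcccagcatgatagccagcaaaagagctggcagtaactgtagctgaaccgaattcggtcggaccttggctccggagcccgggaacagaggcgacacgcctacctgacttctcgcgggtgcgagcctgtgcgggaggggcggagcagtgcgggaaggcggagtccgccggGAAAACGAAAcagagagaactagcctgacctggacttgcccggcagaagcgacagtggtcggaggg
The capitals begin 131 bases before the start in Bst2, where 2 matches overlap, 69 in Irf7, 44 in Ifit3 and 16 in Eif2ak2, whose level was 15.5, 21.2 and 23.7 CPM in KM rats and 11.6, 13.6, 11.6 and 14.4 in W rats (0.65 ± 0.18).

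Antigen presentation by class I molecules was mixed. Of 12 named members, 6 DEGs lay higher and 2 lower (median 0.60). Tap1, the transporter that loads peptides, was at 10.5, 11.4 and 13.5 CPM against 6.38, 4.99, 8.79 and 6.38 (0.83 ± 0.22), and RT1-T24-1 at 3.27, 3.30 and 2.62 against 0.889, 0.857, 1.14 and 0.667 (1.77 ± 0.28). Hfe, a regulator of iron uptake with a class I fold, went from 1.33 to 0.12 without KM 3 and also lost its call without any 1 of the W rats, and 5 of the 8 were DEGs whichever rat was left out.

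Of 7 microglial and macrophage genes, 4 were DEGs upward and 2 downward in KM rats (median 0.49). Cd14, a co-receptor for bacterial lipopolysaccharide, was 2.13-fold higher in KM rats (1.09 ± 0.29), and Tmem119, a marker of resident microglia, 1.41-fold higher (0.49 ± 0.14). C1qc, a subunit of complement C1q, was 1.44-fold lower (−0.52 ± 0.13). Slc11a1, a metal transporter of the phagosome also called Nramp1, was nearly missing in KM rats, at 0.670, 0.348 and 0 CPM against 3.39, 3.04, 3.96 and 2.57 (−3.33 ± 0.70, adjusted p = 0.232). Without KM 3, the rat with no read, the difference was −2.64, and without KM 1 it was −4.37.

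DNA repair genes fell on both sides. All 16 named members were DEGs, 12 of which were higher and 4 lower, with a median of 0.55. Chek1, the kinase that halts the cell cycle at stalled replication forks, was at 56.1, 50.1 and 64.2 CPM against 39.7, 36.9, 32.2 and 31.0 (0.70 ± 0.14, adjusted p = 0.199), and Fan1, a nuclease of crosslink repair, was 1.71-fold higher (0.77 ± 0.21). Besides Msh3, the lower genes were Trex1, an exonuclease that clears cytosolic DNA (−0.56 ± 0.16), H2afx and Rad23b. Without W 1, 9 of the 16 were DEGs and without KM 1, 7 were, and Atr, Wrn, Mre11a and Lig4 were among those that lost the call.

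Named genes listed with the MAP kinase cascade and its inputs were mostly higher. The list is wider than the path from growth factor receptors through Ras to ERK. Its upward DEGs include Gadd45b, Gadd45g, Tgfbr2, Mapkapk2, Chuk and Ikbkb, so the counts are not of that path alone. Of 35 named members, 26 were upward DEGs and 6 downward (median 0.45). Tek, Kdr and Flt1 of the endothelial list and Cd14 count here too. The ligand Tgfa was at 73.9, 63.8 and 68.0 CPM against 35.6, 26.5, 44.3 and 25.4 (1.06 ± 0.20), the neurotrophin receptor Ngfr at 15.7, 12.3 and 16.2 against 7.03, 5.53, 8.88 and 7.24 (1.04 ± 0.20), and the receptor Fgfr2 was 1.53-fold higher (0.61 ± 0.14). The Ras activator Rasgrp3 was higher by 1.15 ± 0.18, while the activator Rasgrf1 differed by −0.51 ± 0.20 (not a DEG without KM 1, KM 2, KM 3, W 2 or W 3) and Hras itself by −0.43 ± 0.11. The strains did not overlap in any of these 6 genes. Of all 35 members, 21 lay higher in KM rats without overlap and 3 lower. Without KM 2, 18 of the 32 remained DEGs, without KM 1 or W 1 19 did, and without KM 3 or W 3 21 did.

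**Figure D4:**
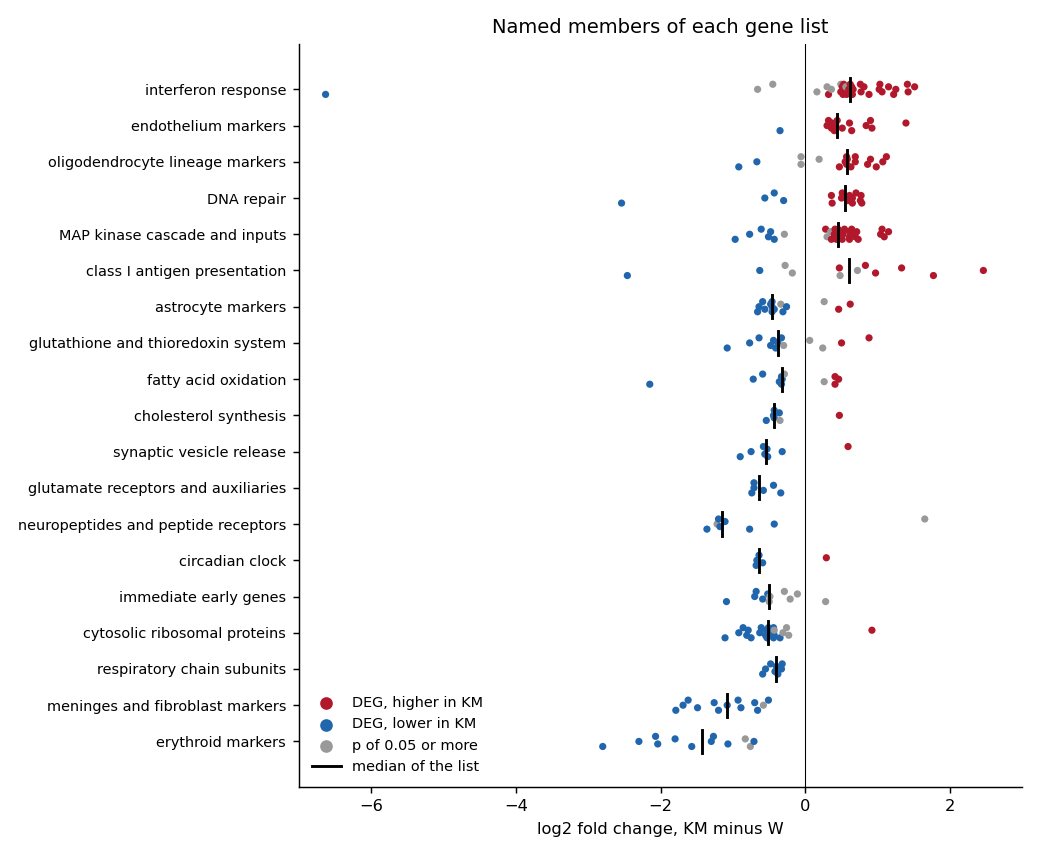
Log2 fold change (KM minus W, horizontal axis) of the named members of 19 gene lists, with 1 point a gene, red or blue for DEGs and grey for the others, and a black bar at each list's median. The interferon median is 0.62 with Ifit1 far to the left, and the erythroid median is −1.43.

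The few named genes of the synapse were mostly lower in KM rats. Of 42 vesicle release genes listed, 8 had a name. Of these, 7 were downward DEGs and 1 upward (median −0.54), and 6 of the 8 were DEGs whichever rat was left out. Vamp2 (synaptobrevin, the vesicle SNARE) was at 738, 679 and 677 CPM in KM rats and 1030, 1050, 913 and 1010 in W rats (−0.52 ± 0.11). Syn1, a phosphoprotein that tethers vesicles and is mutated in some human epilepsies, was at 442, 394 and 310 CPM against 514, 568, 617 and 546 (−0.56 ± 0.15). Rab3a, the vesicle GTPase, was 1.44-fold lower (−0.53 ± 0.16), and the higher gene was Sypl1, a synaptophysin-like protein found widely outside neurons (0.59 ± 0.14). KM and W rats did not overlap in any of these 4 genes, the 4 of smallest p in the list. They did overlap in the DEGs Syt5 and Stx1a.

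The receptors and channels were fewer. Of 36 glutamate receptor and auxiliary genes listed, 6 had a name, and Grik5 (−0.34 ± 0.14) was the single receptor subunit among them. The others were Cacng3, Cacng4, Cacng5, Cnih3 and Dlg4. All 6 were DEGs lower in KM rats (median −0.64). Without KM 2, however, a single one of them, Cacng4 (−0.58 ± 0.10), was a DEG, and without W 1 there were 3. Htr3a, the serotonin-gated cation channel, was at 4.69, 4.08 and 3.93 CPM against 11.2, 12.5, 14.9 and 6.38 (−1.41 ± 0.29). Of 9 voltage-gated channel genes, 5 were downward DEGs and 2 upward (median −0.37), and 4 of these 7 remained DEGs without KM 3 or without W 1. Kcnip1, a calcium-binding partner of A-type channels, was lower by 0.78 ± 0.22 on the log2 scale, and the accessory subunit Kcne5 was higher, at 14.2, 10.8 and 10.6 CPM against 4.44, 3.74, 7.21 and 3.33 (1.34 ± 0.28). Slc12a2, the NKCC1 transporter that brings chloride into cells, was at 251, 304 and 360 CPM against 233, 160, 213 and 201 (0.60 ± 0.17), and it too was above the W range in every KM rat. Slc12a2 is also abundant in the choroid plexus, and without KM 3 its difference was 0.46 (unadjusted p = 0.0304).

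Of 5 named clock genes, 4 were DEGs lower in KM rats and 1 was higher. Dbp, a clock output factor, was at 152, 177 and 180 CPM against 268, 253, 243 and 317 (−0.67 ± 0.13, adjusted p = 0.199), and Per1 at 50.6, 36.1 and 37.2 against 53.5, 65.7, 55.3 and 90.4 (−0.68 ± 0.22). Both were DEGs whichever rat was left out, while Per2 and Ciart were not DEGs without KM 2, KM 3 or W 4. Of the 5 clock DEGs, 2 remained DEGs in each of these cases and 3 without W 2. The hour at which each rat was killed is not given in the sources used here. Of 11 immediate early genes, 5 were DEGs, all lower. Egr1 was at 56.4, 37.8 and 21.5 CPM against 55.2, 106, 87.2 and 79.0 (−1.09 ± 0.33), with KM 1 inside the W range. Fos (−0.21, unadjusted p = 0.498) and Nr4a1 (0.28, unadjusted p = 0.580) did not pass the QLF test.

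Of 25 cytosolic ribosomal protein genes, 20 were downward DEGs and 1 was upward (median −0.51). Of the downward ones 15 were DEGs whichever rat was left out, but 7 were in a fit with all 11 rats. Ribosomal proteins have many processed copies in the genome, so single levels are uncertain. Rps2 was at 228, 245 and 203 CPM against 345, 312, 292 and 332 (−0.51 ± 0.12). For Rps27 the difference was largest in KM 3, at 131, 111 and 57.6 CPM against 167, 201, 192 and 197, and it went from −0.92 to −0.64 without that rat. All 8 named respiratory chain and ATP synthase genes were DEGs lower in KM rats (median −0.41), 4 were DEGs without KM 3, 5 without KM 1 or W 1, and 1 was in the fit with all 11 rats.

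Cholesterol synthesis genes were lower in 5 of 7 cases, with Msmo1 at 112, 116 and 135 CPM against 185, 170, 207 and 139 (−0.54 ± 0.15), while Ggps1, on the branch to protein prenylation, was higher (0.47 ± 0.13). Without KM 2 or without W 1, 3 of these 6 were DEGs. Of 13 glutathione and thioredoxin genes, 8 were lower and 2 higher. Gstm1, a glutathione transferase, was at 137, 172 and 133 CPM against 223, 228, 262 and 294 (−0.77 ± 0.15), and Slc7a11, the cystine importer, was 1.55-fold lower (−0.64 ± 0.15). Without KM 1 or KM 2, 5 of these 10 remained DEGs, and without W 1 or W 3 6 did. Of 12 fatty acid oxidation genes, 7 were lower and 3 higher. Acsm5, an acyl-CoA synthetase for medium-chain fatty acids, was at 2.34, 1.30 and 3.15 CPM in KM rats and 14.5, 11.3, 1.58 and 13.4 in W rats, so that W 3 was at the KM level (−2.15 ± 0.67, unadjusted p = 0.0115). Acsl1 was higher by 0.41 ± 0.12 and Acot11 lower by 0.59 ± 0.20. Without KM 2 there were 5 DEGs left, Acot11 not among them, and without KM 1 or W 3 there were 6.

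The remaining lists were small or mixed. Of 7 genes mutated in human epilepsies, 6 were downward DEGs and 1 upward (median −0.50), and without KM 1 there were 3 and without KM 2 there were 4. Of 8 monoamine and acetylcholine genes 2 were downward DEGs, but 5 were without KM 3 and 1 without KM 1, W 1 or W 3. Of 4 GABA and glycine genes 2 were downward and 1 upward, and 1 of these 3 remained a DEG without KM 1, KM 2, W 1 or W 4. Proteasome subunits (3 of 4) and mitochondrial ribosomal proteins (8 of 9) had downward DEGs alone, of which 1 and 3 were DEGs whichever rat was left out, both of these low counts being reached without W 1. Without KM 1, 1 proteasome and 4 mitochondrial ribosomal DEGs remained, and of the latter 3 remained without W 3 and 5 without KM 3. Solute carriers (10 upward and 17 downward of 40), zinc finger proteins (3 and 13 of 24), protocadherins (2 and 4 of 7) and ependymal genes (1 and 4 of 5) went both ways. Without KM 1, 16 of the 27 solute carrier DEGs, 7 of the 16 zinc finger DEGs, 3 of the 6 protocadherin DEGs and 3 of the 5 ependymal DEGs remained. Of the same zinc finger DEGs 10 remained without KM 2 and 9 without KM 3 or W 4, of the protocadherin DEGs 3 without KM 2, and of the ependymal DEGs 3 without W 1 or W 3. Of 4 genes of the forebrain cortex and hippocampus 3 were downward DEGs, and without KM 1, KM 2 or W 2 just 1 was. Of 2 thalamic and habenular genes 1 was upward and 1 downward, and neither was a DEG without KM 1, KM 2, W 1 or W 2. RT1-Bb, the single class II gene with a name, was at 4.10, 3.04 and 5.59 CPM against 1.86, 1.17, 3.34 and 2.67 (0.92 ± 0.38, and not a DEG without KM 1, KM 3, W 1 or W 2). No mitochondrially encoded transcript had a name.

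The named DEGs also differed by gene span, the length from start to end in the RefSeq table, which was found for 1331 of 1383 of them (96.2%). The median span was 15.4 kb for DEGs lower in KM rats and 38.8 kb for those higher. In the shortest of 5 equal bins (up to 7.40 kb), 72 DEGs were higher and 195 lower in KM rats, and in the longest (from 77.0 kb) 174 were higher and 92 lower. The mean log2 CPM of the longest bin relative to the shortest, centred on the 7 rats, was 0.24, 0.14 and 0.35 in KM rats and −0.24, −0.12, −0.17 and −0.21 in W rats, with the highest value in KM 3. These genes were chosen by the same contrast, so the separation is a description. Spans were of GRCr8 while the reads had been mapped to Rnor_6.0, and the part of RNA quality, read coverage along the transcript or cell makeup in this order was not tested.

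**Figure D5:**
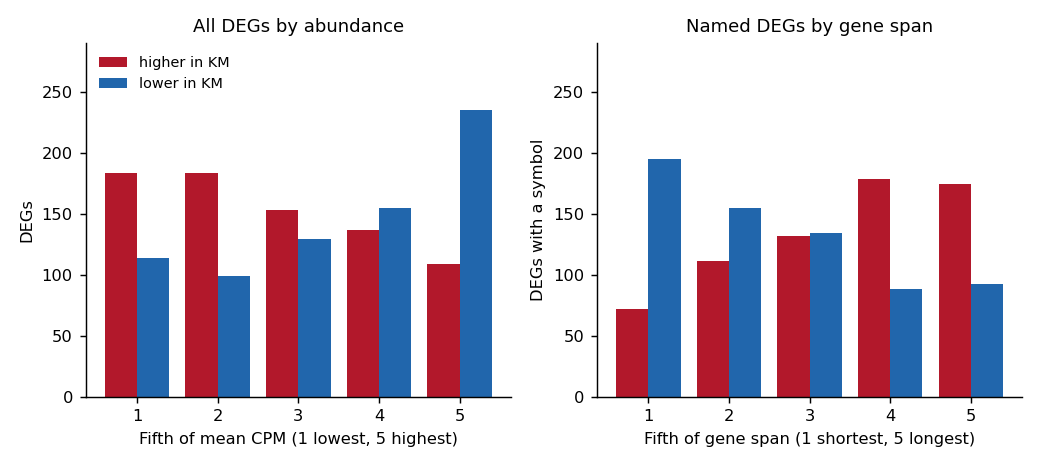
Numbers of DEGs higher (red) and lower (blue) in KM rats in 5 bins of mean CPM over all genes tested (left, 1497 DEGs) and 5 bins of gene span among named DEGs (right, 1331 DEGs). Lower DEGs outnumber higher ones in the most abundant bin (235 against 109) and in the shortest bin (195 against 72).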

How the data were processed

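Libraries of 3 KM and 4 W rats, grouped by sample title, were analysed. The authors trimmed reads with Trimmomatic, mapped them to Rnor_6.0 with STAR and counted them per gene with HTSeq, and deposited whole counts per gene, not normalized. Versions, annotation release and strand setting are not given in the sources used here, so antisense and overlapping genes cannot be told apart. Reads outside genes (16.5% to 21.7% of each rat) were left out.

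Genes whose mean over these rats reached 1 CPM were tested with edgeR 4.0.16 (R 4.3.3), TMM factors and the original quasi-likelihood F-test, with Benjamini-Hochberg adjustment over 13721 genes. CPM values are TMM-scaled, and log2 CPM used a prior count of 2. The value after ± is the absolute log2 fold change divided by the square root of the F statistic, an approximate SE. The procedure was tested on simulated data. Where nothing says that rats came from separate litters, p-values measure the spread between these rats.

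Gene names came from the study's supplementary list, whose fold changes and p-values were not used. Members, lists and the naming rule were chosen with earlier results of these data known. The rule named genes with an adjusted p under 0.05, the 12 largest separate differences each way (p under 0.01, mean CPM of at least 2), up to 4 DEGs of smallest p in each of 41 lists, and 19 genes of the study, 5 of which had no name. Other list members named were chosen after their values were seen. Alternatives were DESeq2 1.42.0, other filters, all 11 rats, a replicate block and leaving out each rat. A few genes that the rule would name are not reported here.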

Additional observations from a re-analysis of the deposited data

Results flagged for a closer look

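Among 142 genes that the naming rule took, 6 had 1 of the 4 W rats so far from the other 3 that its gap to the nearest, as a share of the whole range, was above Dixon's 95% critical value, a limit that chance passes in about 1 of 20 groups. Tspan2 was at 103 CPM in W 4 and at 182 to 189 in the other W rats, nearer to the KM level. Cyp4x1 was at 9.14 CPM in W 3 against 3.62 to 4.21, and Zfp771 at 43.8 CPM in W 1 against 41.6 to 41.9. The second identifier under the symbol Pcdha4 was at 4.95 CPM in W 4 against 2.67 to 2.88. Ttr was at 45.5 CPM in W 3 against 2.42 to 5.77. Mef2c was at 105 CPM in W 2 against 40.9 to 50.5. The 6 genes were spread over all 4 W rats, 2 each in W 3 and W 4 and 1 each in W 1 and W 2. Groups of 3 rats were not examined in this way, so the value of KM 3 for Ttr and the other choroid plexus genes does not appear here.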

How the results depend on the processing

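The count of DEGs went from 1497 to 954 without W 1, and over the 7 rats left out in turn it ranged from 954 to 1831. DEGs higher in KM rats ranged from 455 to 886, and genes with an adjusted p under 0.05 from 1 to 14. The latter numbered 9 in the fit reported, 147 in the DESeq2 Wald test, 17 without the CPM filter, 5 with at least 10 counts in every rat and 19 with all 11 rats in a single fit. Genes without overlap went from 1594 to between 1935 and 2986 with a rat fewer, which is easier to meet with fewer rats. With the replicate number as a block there were 1527 DEGs, 826 of them shared with the 1497, and 5 genes with an adjusted p under 0.05. The sample titles number the rats and state no pairing. Same-numbered KM and W rats deviated with correlations of −0.153, −0.188 and 0.191, and other pairs with −0.144 to 0.238. Deviations from the means of 3 and 4 rats are tied to one another. These values therefore cannot decide whether same-numbered rats were handled together. The log2 fold change of Nr4a2, which was not a DEG, was 0.17 with all rats, changed sign without KM 1 (−0.29) and without W 3 (−0.17), and reached 0.69 without W 4. In these settings no other gene named by the rule changed sign. Of the 143 named DEGs, 110 were DEGs whichever rat was left out. With 3 rats against 4, an exact permutation test of a single gene could not give a p under 0.0571, so none is given. Counts of 3 or fewer per rat limit the lowest genes.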
